A study of Drosophila melanogaster with 3 samples.

Results

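The cytoplasmic ribosomal protein genes were taken from a ChIP-seq study of the transcriptional coregulator Snoo in whole Drosophila melanogaster pupae. Members were the protein-coding genes of the Ensembl BDGP6 annotation whose names start with RpL (large ribosomal subunit) or RpS (small subunit). This gave 92 of 13968 protein-coding genes, 54 of the large and 38 of the small subunit. The names begin with different prefixes for mitochondrial ribosomal proteins, so those 73 genes were not members and served as a comparison.

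All chromatin came from 1 group of 3 biological replicates, numbered 3, 5 and 6. Each was made from whole pupae of pooled males and females of the snoo-MiMIC strain, whose age the labels give as unknown. In this strain an eGFP exon sits in an intron of snoo, which makes a Snoo-eGFP fusion from the gene's own locus, and the fusion was precipitated from sonicated chromatin with an antibody against GFP. For the number of animals in a replicate, none of the sources used here gives a value. All samples carry the fusion, and a control library was not analysed here. A whole pupa mixes many cell types, so more cells with the protein at a gene and more protein per cell cannot be told apart. The authors gave 6633 peaks that passed their cut on the irreproducible discovery rate (here the IDR list). They also gave a candidate list of about 30000 regions for each replicate and for the replicates pooled. A gene was called bound when the summit of an IDR peak lay within 1000 bp of any of its annotated transcript starts, and its strength was the peak signal of the strongest such peak. The signal is the authors' value against a control and was compared only within 1 list. Read depth is unknown, so no interval that needs it is given, and nothing was tested between conditions because there is 1 group.

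Ribosomal proteins make up the protein part of the large and the small ribosomal subunit, and most cells transcribe their genes at high and matched rates. In Drosophila many of these genes are haploinsufficient and give the Minute phenotype of slow development and thin bristles. Their transcripts usually begin within a run of pyrimidines, the TCT-type initiator, and the factors TRF2, M1BP and DREF have been placed at their promoters in fly cells. Several also have a second gene for the same protein, often expressed in the germ line. Snoo belongs to the Ski and SnoN family, proteins that bind the Smads of the TGF-beta and BMP pathways.

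Of the 92 genes, 79 were bound in the IDR list (85.9%, exact 95% interval 77.0 to 92.3%), against 25.2% of all protein-coding genes. For 75 genes (81.5%) the strongest summit was within 150 bp of a start, against 11.1% of all genes. For 66 genes (71.7%) a bound summit belonged to the stronger 3317 IDR peaks, against 14.6% of all genes. The strongest 6633 regions of each replicate were then read in the same way. In replicate 3, 70 members had such a region within 1000 bp of a start (76.1%, all genes 25.4%). In replicate 5 there were 80 (87.0%, all genes 26.2%), and in replicate 6 there were 73 (79.3%, all genes 26.5%). The mean over replicates was 80.8% ± 5.58 (SD, n = 3) for ribosomal protein genes and 25.7% ± 0.557 (SD, n = 3) for the other protein-coding genes, and no replicate brought the ranges near each other. An IDR summit that had a partner within 150 bp in the strongest regions of all 3 replicates stood near 63 members (68.5%), against 16.1% of all genes. All these intervals treat genes as independent and cover counting error only.

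Mitochondrial ribosomal protein genes, which serve the ribosome of another compartment, stood much nearer to the background, with 26 of 73 bound (35.6%, exact 95% interval 24.7 to 47.7%). Over replicates their share was 38.4% ± 4.11 (SD, n = 3). Where they were bound, the strongest summit lay at a median of 158 bp from a start, and 1 of the 26 had it within 50 bp.

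Bound ribosomal protein genes had a median peak signal of 434 (quartiles 258 to 610, range 134 to 1280.0). The other 3447 bound genes had a median of 250.4 (quartiles 173 to 436), with a highest value of 4785. Among all IDR peaks the members' median stood at the percentile 80.9 and that of the other bound genes at 57.5. The strongest 25% of the IDR list held the peaks of 47 bound members (59.5%) and of 31.6% of the other bound genes. A signal above 1000 was reached by 1 member (1.27% of the bound members), against 6.41% of the other bound genes. Of the remaining members, 30 lay between 500 and 1000, 36 between 200 and 500, and 12 at 200 or below.

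The strongest member was RpS27, a zinc-finger protein of the small subunit, with an IDR signal of 1280.0 in a peak at 3R 25247322 to 25247757 and its summit 1 bp upstream of the start. Its signal was 180.4 in replicate 3, 467 in replicate 5 and 626 in replicate 6, where it ranked 449th, 75th and 117th of each list. RpS4, a small subunit protein, followed with 923 at 3L 13041585 to 13041998 in its 5' UTR, and signals of 156 in replicate 3, 383 in replicate 5 and 403 in replicate 6. RpL7, a large subunit protein, had 876 at 2L 10200879 to 10201225, with 120.4 in replicate 3, 321 in replicate 5 and 443 in replicate 6. Each of the 3 genes had a region of the strongest 6633 in all replicates, and the rank of each was poorest in replicate 3. RpLP0, the base of the ribosomal stalk that recruits translation factors, had 834 at 3L 22075831 to 22076260. RpL13A had 821 at 3R 5624231 to 5624623.

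The starts of these 5 genes are shown because they are among the members with the strongest peaks, each with its summit within 35 bp of a start. Each line runs from 80 bp before to 20 bp from the annotated start nearest to the summit, read from the RefSeq genome on dm6. Capitals mark a CTTT preceded by a pyrimidine within 5 bp of the start, the E-boxes CAGCTG and CACGTG, and GGTCACACT, the core of motif 1. The windows are chr3R:25247495-25247594 on the minus strand for RpS27 and chr3L:13041721-13041820 on the plus strand for RpS4. They are chr2L:10201020-10201119 for RpL7, chr3L:22076012-22076111 for RpLP0 and chr3R:5624394-5624493 for RpL13A, all on the plus strand.
RpS27: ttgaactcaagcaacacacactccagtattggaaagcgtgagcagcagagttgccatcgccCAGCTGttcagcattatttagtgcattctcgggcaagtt
RpS4: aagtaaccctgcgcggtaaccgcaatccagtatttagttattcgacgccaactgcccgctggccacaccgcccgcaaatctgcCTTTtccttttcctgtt
RpL7: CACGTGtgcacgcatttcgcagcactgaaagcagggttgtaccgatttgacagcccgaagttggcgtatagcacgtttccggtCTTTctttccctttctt
RpLP0: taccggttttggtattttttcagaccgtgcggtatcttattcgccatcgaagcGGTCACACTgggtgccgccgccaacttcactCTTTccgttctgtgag
RpL13A: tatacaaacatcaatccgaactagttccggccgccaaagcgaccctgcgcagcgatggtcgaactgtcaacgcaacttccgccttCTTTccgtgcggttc
All but RpS27 have the pyrimidine initiator, 3 to 5 bp inside the transcript as annotated, and RpS27 has an E-box ahead of the start. Of the strong members not printed here, RpL32 has the initiator at the start nearest to the summit. RpL24 and RpS10b have none within 5 bp of that start.

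**Figure D1:**
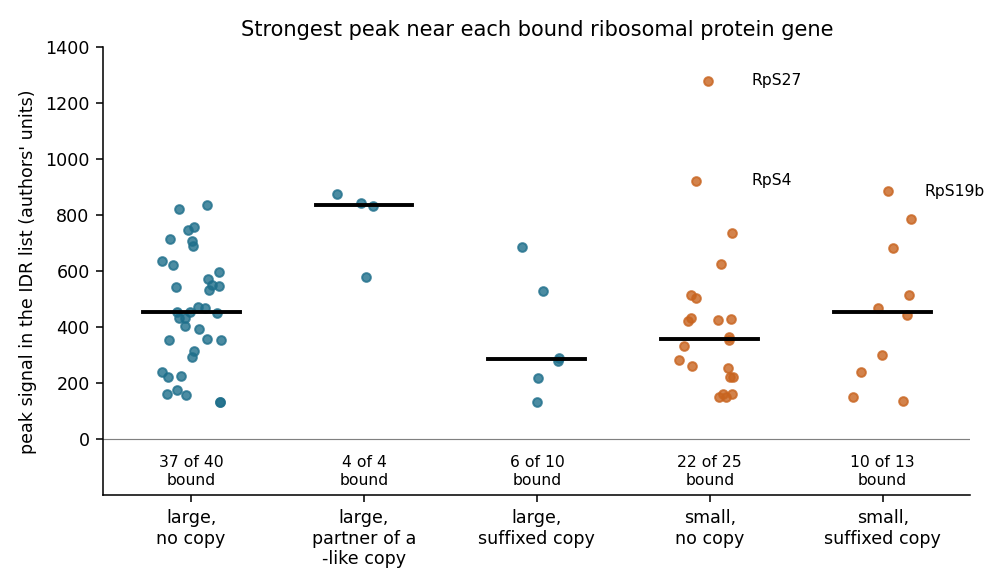
Peak signal in the IDR list (vertical axis, authors' units) of the strongest peak within 1000 bp of a start, 1 point per bound gene, by subunit and by whether the gene has a named copy; black lines are medians. Points are spread sideways only to part them, and the counts below 0 give bound genes of all genes in the class. RpS27 at 1280.0 stands above all others, and the 4 large subunit genes that have a -like copy lie between 579 and 876.

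Among the 15 strongest members were 10 of the large and 5 of the small subunit. Beside the genes already named, they held RpS19b (886), which lay between RpS4 and RpL7. The RpS19b summit was 900 bp upstream of its start and nearer to the start of CG5854. They also held RpL24 (844) and RpL32 (838), which lay between RpL7 and RpLP0. RpL32 is often used as an expression reference under its older name rp49. RpS10b had 788, RpL28 746 and RpS25 736. RpL4, which lines the peptide exit tunnel, had 716, RpL41 709 and RpL23A, which also stands at the tunnel exit, 691. All 15 were near strongest regions in all 3 replicates. Their ranks ran from 144 to 1619 in replicate 3, from 75 to 418 in replicate 5 and from 117 to 687 in replicate 6.

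The remaining stalk genes were weaker than RpLP0. RpLP1 had an IDR signal of 449, with 93.7 in replicate 3, 199 in replicate 5 and 164 in replicate 6. RpLP2 had 241, and its region ranked 6919th in replicate 3, outside the strongest regions there, but 2182nd and 2581st in replicates 5 and 6. The genes whose proteins are made as fusions to ubiquitin lay far apart. RpS27A reached 505 and RpL40 only 134, near the lowest signal of the IDR list at 128. RpL40 ranked 8943rd in replicate 3, 6275th in replicate 5 and 7134th in replicate 6, so that replicate 5 alone had it among the strongest regions. RpS6, the substrate of S6 kinase, had 262 with its summit exactly at the start, at X 7901151 to 7901496.

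At the lower end, 12 bound genes had a signal of 200 or less, with 5 large and 6 small subunit genes beside RpL7-like. RpL36A had 134 and was the 1 bound gene without any region near its start in replicate 3, while its signal was 76.3 in replicate 5 and 38.1 in replicate 6. RpL5, a partner of the 5S RNA in the large subunit, had 163, and RpL15 158. RpL35 had 175. In the small subunit RpS3, which stands at the messenger RNA entry, had 151, RpS30 161 and RpS24 163. The copies RpS5b (136) and RpS28a (149.97) were also in this group. Of these 12, only RpS24 and RpL15 were near strongest regions in every replicate.

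Summits sat close to the start. The median distance from the nearest start was 22 bp over the 79 bound members and 178 bp over the other bound genes. In 60 members (75.9%) it was within 50 bp, against 14.2% of the other bound genes, and in 22 within 10 bp. The summit lay upstream in 57 members (72.2%), against 78.4% of the other bound genes, and the members' signed median was 17 bp upstream (-17). In the replicate lists the median distance was 24, 24 and 29 bp in replicates 3, 5 and 6 (SD 2.89, n = 3), while the signed median moved from 7 in replicate 3 to -11 in replicate 5 and -26 in replicate 6. The median thus fell on different sides of the start in different replicates, at about the same distance. The peak interval itself covered a start in 75 of 79 bound members and in 49.7% of the other bound genes. By annotation 45 summits were upstream of the gene, 29 in the 5' UTR, 3 in an intron (RpL26, RpL35 and RpS24), 1 in a coding exon (RpS3) and 1 downstream of the gene (RpS28a).

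The distance to the nearest start could depend on how many starts a gene has, which was not tested. Bound members had a median of 2 annotated starts and other bound genes a median of 1. Among genes with a single start, the median distance was 30 bp in 39 members and 170 bp in 1895 other genes. When distance was taken from the start shared by most transcripts, the medians were 31 and 217 bp.

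**Figure D2:**
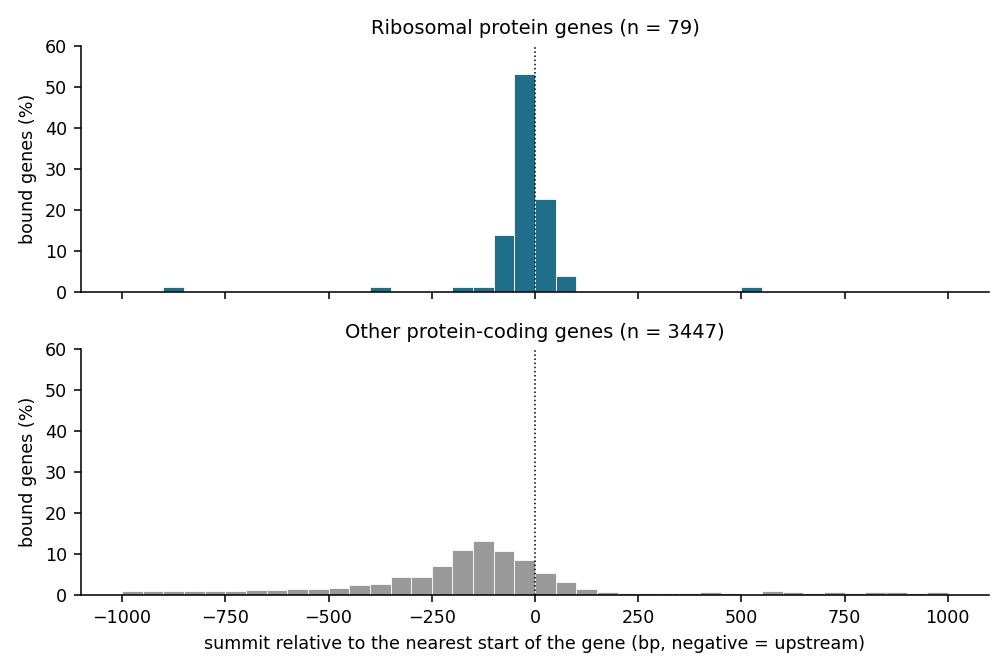
Signed distance in bp from the nearest annotated start to the summit of the strongest IDR peak (horizontal axis, bins of 50 bp, negative values upstream) as a percentage of bound genes, for 79 ribosomal protein genes and 3447 other genes. In the ribosomal protein genes the bin from 50 bp upstream to the start holds 53.2% of genes, while the other genes lie at a median of 178 bp from a start, mostly upstream.

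Summits farther than 150 bp from a start occurred in 4 bound members. In RpS20 the summit was 155 bp upstream, with a signal of 365. In RpS19b it was 900 bp upstream at 3R 23934234 to 23934598, 518 bp from the start of CG5854. In RpS28a it was 511 bp downstream of the start, past the end of the gene and 84 bp from the start of Mgat2. In RpL7-like it was 371 bp upstream and 6 bp from the start of JhI-21. The start of another gene was also nearer in RpLP0-like, whose summit was 63 bp from its own start and 24 bp from that of 14-3-3zeta. All 4 genes with a nearer start of another gene were copies with a suffix.

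Neighbouring genes often share the region. For each member, the other gene start nearest to the summit was taken, or nearest to the member's start where it was unbound. In 53 members this start was on the opposite strand, within 1000 bp upstream and pointing away. Of these members 49 were bound, with a median signal of 454 against 325 for the 30 bound members without such a neighbour. RpL13 shared its peak (597) with the gene of the promoter factor Dref, whose start was 91 bp from the summit. RpS6 shared its peak with bys. Small nucleolar RNA genes, which guide the modification of ribosomal RNA, lie inside 28 members, 74 in all. Of these hosts 26 were bound, with a median signal of 431 against 443 for the bound members without one. Bound shares of other genes with such a neighbour or with a small nucleolar RNA gene inside are not given here.

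Large and small subunit genes were bound in 47 of 54 cases (87.0%, exact 95% interval 75.1 to 94.6%) and 32 of 38 cases (84.2%, exact 95% interval 68.7 to 94.0%), and the intervals overlap over most of their length. The median IDR signal was 454 in large and 393 in small subunit genes, which put them at the percentiles 82.4 and 77.7. In the replicate lists the median percentile of large subunit genes exceeded that of small subunit genes by 3.79 in replicate 3, by 2.36 in replicate 5 and by 0.0033 in replicate 6. The mean difference was 2.05 ± 1.91 (SD, n = 3), which is close to its spread between replicates, and it was not tested. More large than small subunit genes had a summit matched in all 3 replicates, 41 of 54 (75.9%) and 22 of 38 (57.9%), with intervals that overlap (62.4 to 86.5% and 40.8 to 73.7%).

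Genes with no named copy were bound in 59 of 65 cases (90.8%, exact 95% interval 81.0 to 96.5%). Of the 23 genes with a copy suffix, 16 were bound (69.6%, exact 95% interval 47.1 to 86.8%), 6 of 10 in the large and 10 of 13 in the small subunit. The intervals overlap. Once a summit was given only to the nearest protein-coding start, 59 of 65 genes without a copy and 12 of 23 with a suffix (52.2%) were bound. Over replicates, 86.2% ± 7.69 (SD, n = 3) of the genes without a copy and 62.3% ± 5.02 (SD, n = 3) of those with a suffix were near the strongest regions, and the ranges (78.5 to 93.8% and 56.5 to 65.2%) did not overlap. Where bound, genes without a copy had a median signal of 428 and those with a suffix 372. The order differed between subunits, with medians of 454 without a copy and 285 with a suffix in the large subunit, and 359.6 and 456 in the small subunit. In replicate 6 the median percentile was also higher with a suffix (96.1) than without a copy (94.9).

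The 4 genes without a suffix that have a -like partner were all strong, and their partners were not. RpL7 had 876 and RpL7-like 135, RpL24 844 and RpL24-like no IDR peak, RpLP0 834 and RpLP0-like 219, and RpL22 579 and RpL22-like no IDR peak. In yeast the counterparts of RpL7-like, RpL24-like and RpLP0-like assist assembly of the large subunit in the nucleolus and are not part of the finished ribosome. RpL22-like is expressed mainly in the testis. RpL24-like had a region in replicate 5 only, at rank 13564. RpL22-like had regions at ranks 24377 and 18672 in replicates 3 and 5 and none in replicate 6.

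In the lettered and numbered families, 1 copy was usually far ahead. RpS10b had 788, with ranks 1438, 169 and 443 in replicates 3, 5 and 6, while RpS10a had no region near its start in any list. RpL10Ab had 291 and RpL10Aa no region in any list, and RpL37-1 had 279 while RpL37-2 had none in any list. RpS15Aa had 443, whereas RpS15Ab appeared only among candidates, at ranks 11985 and 22556 in replicates 3 and 5. RpS28b had 685, against 149.97 in the distant peak of RpS28a and no IDR peak at RpS28-like. The candidate regions of RpS28-like ranked 4843rd in replicate 3 and 7714th in replicate 5. They lay 668 and 671 bp downstream of its start, past the end of the gene. RpS5a had 515 and RpS5b, a copy expressed in the ovary, 136. The lower copy of these 6 families was at no time above the higher in any replicate.

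Other families had peaks at each copy. RpL34a had 529 and RpL34b 686, with ranks from 463 to 1121 in the 3 replicates. RpS14a (241) and RpS14b (302) lie in tandem on X, from 7933742 to 7934677 and from 7934898 to 7935792, and each had a summit of its own, 24 and 21 bp upstream of the start. Their signals were 44.2 and 16.8 in replicate 3, 103 and 114 in replicate 5, and 103 and 172 in replicate 6. The order of the RpS14 genes thus differed between replicates. RpS19a had 469 with its summit 17 bp upstream. RpS19b, the copy enriched in the germ line, had the higher value of 886 in the peak nearer to CG5854. How far the deposited signal of near-identical copies depends on reads that map to more than 1 place was not tested.

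**Figure D3:**
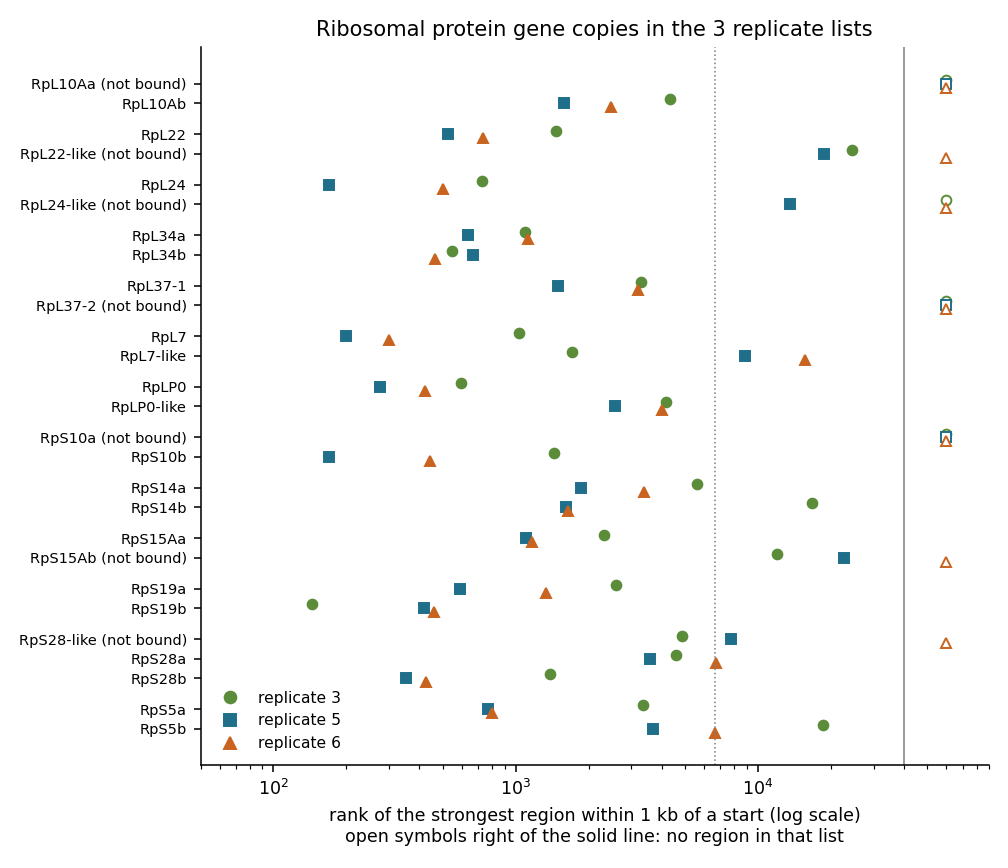
Rank of the strongest region within 1000 bp of a start in each replicate list (horizontal axis, log scale, low ranks strongest) for every gene of a copy family, with families set apart. The dotted line marks rank 6633, and open symbols right of the solid line mean that the list holds no region there. RpL10Aa, RpL37-2 and RpS10a have none in any replicate, while RpL34a and RpL34b lie between ranks 463 and 1121.

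The 13 members that were not bound comprised 7 genes with a copy suffix, named above, and 6 without a copy. All but RpL14 of these 6 had a region in the pooled candidate list, below the IDR list's lowest signal of 128. RpS13 had a pooled signal of 114, RpS9 111, RpL6 97.7, RpS2 93.2 and RpL21 73.9. RpS13 was among the strongest regions in replicates 5 and 6, at ranks 5932 and 5229, and RpS9 in replicate 3, at rank 5071. RpL6, RpS2 and RpL21 were outside them in all 3 replicates. Just inside the limit of the IDR list stood RpL40 and RpL36A with 134 each, and just outside RpS13 with 114.

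RpL14 was different. Its start had a region with a signal of 335 at rank 173 in replicate 5, at 3L 8600806 to 8601129, and one with a signal of 415 at rank 341 in replicate 6, 43 and 46 bp upstream of the start. Neither the list of replicate 3 nor the pooled list held a region within 1000 bp. Of 800 regions shared within 150 bp by the strongest 1000 of replicates 5 and 6, 6 had no summit within 150 bp in the pooled list, and 2 of these lacked one in replicate 3 too. The reason for the missing region was not tested. RpL14 is thus unbound by the rule although these replicates rank it with the strongest members.

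The start windows of members without an IDR peak are shown for comparison with the strong ones, over the same span of 80 bp before to 20 bp from the start, here the start shared by most transcripts. Capitals again mark the pyrimidine initiator, the motif 1 core and, in RpS13, TATCGATA, the core of the DNA replication-related element (DRE) that DREF binds. The windows, on dm6 from RefSeq, are chr3L:8600926-8601025 on the plus strand for RpL14, chr2L:22247814-22247913 on the minus strand for RpL21 and chr3L:9511512-9511611 on the minus strand for RpS9. They are chr2L:8364643-8364742 on the minus strand for RpS13 and chr3R:15037286-15037385 on the plus strand for RpL10Aa.
RpL14: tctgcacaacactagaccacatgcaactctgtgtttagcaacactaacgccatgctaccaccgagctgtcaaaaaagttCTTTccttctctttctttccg
RpL21: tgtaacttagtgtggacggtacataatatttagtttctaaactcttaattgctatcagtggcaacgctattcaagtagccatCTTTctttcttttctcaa
RpS9: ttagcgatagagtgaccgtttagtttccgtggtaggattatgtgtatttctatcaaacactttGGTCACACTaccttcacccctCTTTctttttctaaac
RpS13: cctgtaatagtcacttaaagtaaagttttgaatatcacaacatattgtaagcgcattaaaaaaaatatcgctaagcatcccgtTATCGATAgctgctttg
RpL10Aa: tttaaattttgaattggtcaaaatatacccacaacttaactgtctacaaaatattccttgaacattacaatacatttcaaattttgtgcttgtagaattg
RpL14, RpL21 and RpS9 carry the same kind of pyrimidine initiator as RpS4, RpL7, RpLP0 and RpL13A, and RpL10Aa carries none of the searched sequences in this window.

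Over all members, a CTTT preceded by C or T lay within 5 bp of the start shared by most transcripts in 40 of 92 genes (43.5%, exact 95% interval 33.2 to 54.2%). It did so in 1.92% of the other protein-coding genes and in 1 of 73 mitochondrial ribosomal protein genes. Within 10 bp it was found in 58 members (63.0%) and 4.02% of the other genes. In 56 of these 58 it lay inside the annotated transcript, at a median of 4 bp from the start. By subunit these were 37 large (68.5%) and 21 small (55.3%) subunit genes. They made up 53 of 79 bound members (67.1%) and 5 of 13 unbound members (38.5%). With the 5 bp limit, bound members with the initiator had a median signal of 452 and those without it 421. Where starts tied for the most transcripts, the most upstream was taken, as in RpL7 and RpLP0. In RpS4 and RpL32 the start with the most transcripts was not the one nearest to the summit. RpS4, RpL7, RpL32 and RpLP0 thus counted as without the initiator, although they have it at the start nearest to the summit. The split therefore depends on the start chosen. Among the other genes, 27.1% of those with the initiator and 24.8% of those without it were bound.

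Other short sequences were counted on either strand from 250 bp before to 50 bp after the same start. The DRE core was in 28 members (30.4%, exact 95% interval 21.3 to 40.9%) and 9.09% of the other genes. It was also in 15 of 73 mitochondrial ribosomal protein genes (20.5%, exact 95% interval 12.0 to 31.6%), and these intervals overlap. The 32 copies in members had a median position of 60 bp upstream (-60). In the 24 bound members that had it, the summit lay at a median of 42 bp from the DRE, and within 50 bp in 15. Median signals of bound members with and without a DRE were 424 and 435. A DRE was in 30.4% of bound and 30.8% of unbound members. The motif 1 core, bound by M1BP, was in 9 members (9.78%, other genes 6.04%), among them RpL7, RpLP1, RpS15, RpS23 and the unbound RpS9. RpLP0, shown above with this core near another of its starts, was not among them.

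The E-box CACGTG, a sequence that Myc and other factors bind, was in 10 members (10.9%) and 4.15% of the other genes. All 10 were large subunit genes, namely RpL6, RpL7, RpL7-like, RpL11, RpL24, RpL24-like, RpL29, RpL32, RpL34b and RpLP0-like. None of the 38 small subunit genes had it (exact upper limit 9.25%). The 8 bound genes among the 10 had a median signal of 617, against 432 for the other bound members. The E-box CAGCTG was in 9 members (9.78%), against 17.8% of the other genes and 54.8% of mitochondrial ribosomal protein genes.

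GAGAGAG was in no member (exact upper limit 3.93%) and in 6.19% of the other genes. TATAAA was in 42 members (45.7%) and 45.5% of the other genes. Counted from 100 bp before to 50 bp after the start, it was in 10.9% and 23.8%. The short Smad site GTCTAG was in 8 members (8.70%) and 5.02% of the other genes, in 4 of 79 bound members and in 4 of the 13 unbound ones (RpL6, RpL14, RpL21 and RpS13). GGCGCC, the core of GC-rich sites that the Smad protein Mad binds, was in 4 members (4.35%, other genes 4.53%), all of the small subunit, among them RpS18, RpS21 and RpS28a. A match says only that these letters are in the window. The numbers are small, and no difference between subunits was tested.

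**Figure D4:**
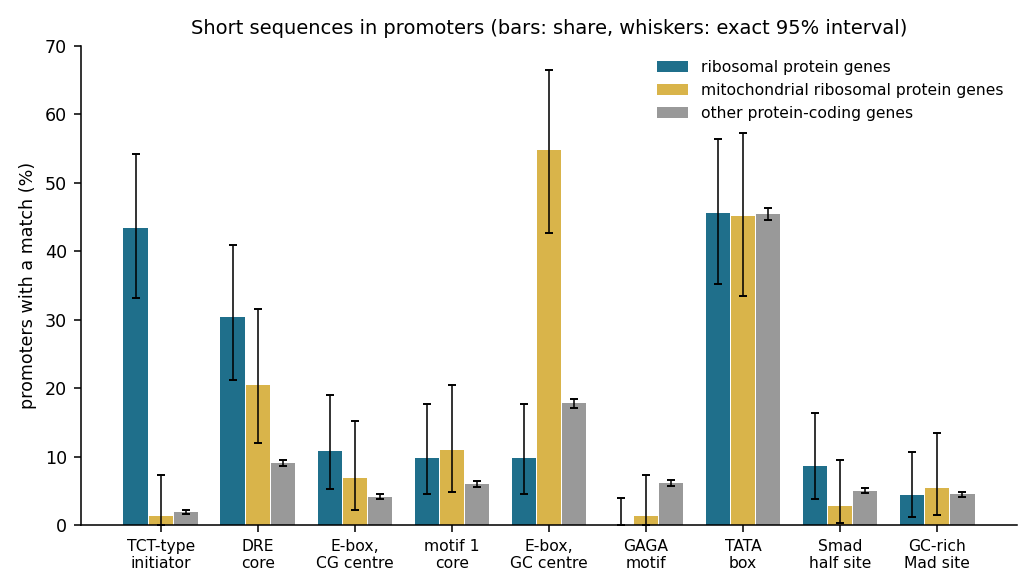
Share of promoters (vertical axis, percent) with each short sequence in 92 ribosomal protein genes, 73 mitochondrial ribosomal protein genes and 13876 other protein-coding genes (the mitochondrial ones included), whiskers being exact 95% intervals over genes. The initiator was sought within 5 bp of the start and the rest from 250 bp before to 50 bp after it. The initiator is far more frequent in ribosomal protein genes (43.5%) than in the others (1.92%). The DRE core is at 30.4% in ribosomal protein, 20.5% in mitochondrial ribosomal protein and 9.09% in other genes, and the E-box with GC at its centre (CAGCTG) is most frequent in the mitochondrial ones (54.8%).

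The replicates ranked the bound members differently from other bound genes. Of 78 bound members with a region in all 3 lists, 64 (82.1%) had their best rank in replicate 5, 9 in replicate 6 and 5 in replicate 3. Of 3361 other bound genes, 26.2% had their best rank in replicate 5. The poorest rank was in replicate 3 for 54 members (69.2%), against 39.0% of the other genes. Median ranks of bound members were 1751 in replicate 3, 868 in replicate 5 and 1520 in replicate 6, while those of the other bound genes were 2902, 3001.5 and 2800.

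Near the strongest 1000 regions stood 13 members in replicate 3, 45 in replicate 5 and 27 in replicate 6. They made up 1.80%, 5.89% and 3.54% of the genes near those regions, against 0.659% of all protein-coding genes. Across bound members, ranks of replicates 5 and 6 had a Spearman correlation of 0.902, those of replicates 3 and 5 of 0.773 and those of replicates 3 and 6 of 0.707. These are correlations across genes within a replicate pair, and genes are not independent replicates. RpS14b ranked 16768th, 1618th and 1637th in replicates 3, 5 and 6, and RpS5b 18610th, 3682nd and 6677th. RpS19b went the other way, with 144 in replicate 3, 418 in replicate 5 and 462 in replicate 6, as did RpL7-like with 1711, 8810 and 15660. In RpS19b and RpL7-like another gene's start was the nearer. RpS20, RpS23 and RpS24 also ranked best in replicate 3, and in them their own start was the nearer. RpLP0-like and RpS28a, with another gene's start nearer, ranked best in replicate 5. What set replicate 5 apart was not tested.

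**Figure D5:**
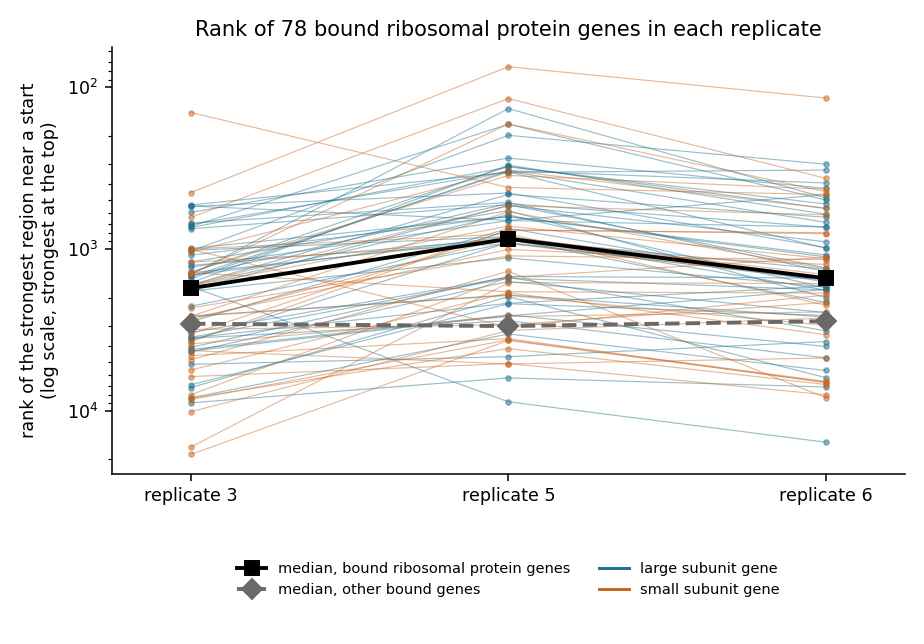
Rank of the strongest region within 1000 bp of a start in each replicate list (vertical axis, log scale, strongest at the top), 1 line per bound ribosomal protein gene with a region in all 3 lists. Squares are the members' medians (1751, 868 and 1520) and diamonds those of the other bound genes (2902, 3001.5 and 2800). The members rise in replicate 5 while the other genes stay level.

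Bound members lay on every arm that holds members. Bound shares of all protein-coding genes by arm are not given here. All 14 on X were bound, 8 of them small subunit genes, with RpS10b (788), RpS28b (685), RpL22 (579) and RpL17 (552) the strongest of their subunits there. On 2L 15 of 19 were bound, 12 of 13 large but 3 of 6 small subunit genes. Its strongest were RpL7 and RpL24, then RpS21 (517) and RpS27A. On 2R 18 of 21 were bound, with RpL41 among the strongest and, in the small subunit, RpS16 (627) and RpS18 (432). On 3L it was 12 of 14, with RpLP0, RpL28, RpS4 and RpS12 (421) in front, and on 3R 19 of 23, with RpL32, RpL13A, RpS27 and RpS19b. The single member on chromosome 4, RpS3A, was bound with a signal of 428 in a peak at 67081 to 67461.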

How the data were processed

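Members and lists were chosen with earlier results of these data known. The authors deposited peak lists on the dm6 and dm3 builds, and they hold for each peak a signal computed by the authors' peak caller against a control, per the deposited file listings. For aligner, peak caller and IDR threshold, names and versions were not given in the sources used here. Used were the dm6 lists: the IDR list, which holds the 6633 regions with the highest signal of the pooled list, and the candidate lists of replicates 3, 5 and 6 and of the pool. The dm3 lists were not used. Starts came from the Ensembl annotation and sequence from RefSeq of the same build, and no peak ran past an arm's end.

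A gene's value in a list was that of the strongest summit within 1000 bp of any start, so it need not come from the same region in each list. Values were compared across replicates by rank, or by percentile in the list. Summits matched within 150 bp. Copies were genes that share a stem after removing a final a or b, -1 or -2, or -like. Intervals are exact 95% Clopper-Pearson. No test was run, and intervals cover counting error only. Replicates are biological per the labels. Protein identity between copies was not computed. The steps were tested on simulated data. Named were the 15 strongest members, all unbound members, all copies with their partners, summits beyond 150 bp, the stalk and ubiquitin fusion genes, RpS6, and the 2 strongest of each subunit per arm, and others to illustrate a count, chosen after their values were seen. Values of some members are not reported here. Tools were python 3.11.15, numpy 2.4.6, scipy 1.17.1, pandas 2.3.3 and matplotlib 3.10.9.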

Additional observations from a re-analysis of the deposited data

How the results depend on the processing

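The share of bound ribosomal protein genes stayed above that of the other genes under every alternative run. It was 71.7% among the stronger 3317 IDR peaks (other genes 14.2%) and 68.5% among peaks matched in all 3 replicates (other genes 15.8%). With summits shared by the remaining pair when a replicate was left out, it was 68.5 to 76.1% (other genes 17.8 to 19.3%). In the same alternatives, large subunit genes had 74.1% among the stronger peaks and 74.1 to 79.6% with a replicate left out. Small subunit genes had 68.4%, 57.9% matched in all 3 replicates, and 60.5 to 71.1%. Genes without a copy had 76.9%, 72.3%, and 72.3 to 81.5%. These lists hold fewer peaks by construction. The other genes' share also moved with the window (21.5% at 500 bp, 30.4% at 2000 bp), to 13.8% when the interval had to cover a start and to 18.6% with the nearest start only. The median distance was 19 bp for peaks matched in all replicates and 31 bp from the start shared by most transcripts, an alternative chosen after seeing the data. The initiator share was 32.6% at the outermost start, 0% exactly at the annotated start and 63.0% within 10 bp. TATAAA fell to 10.9% in the shorter promoter. No paired analysis was possible because there is 1 group.

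Limits are that the lists give no read depth, that a control was not analysed here, that the tagged line is 1 strain, and that the signal cannot be compared between lists. Neighbouring genes share peaks, and copies share sequence.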

Other observations

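Genes for the assembly of ribosomes and for factors that act on ribosomal protein genes were also read. Of 26 ribosome biogenesis and RNA polymerase I genes, 12 had an IDR summit within 1000 bp of a start, led by the anti-association factor eIF6, which binds the large subunit (1636, 106 bp upstream) and the nucleolar GTPase gene Ns2 (1086). Fib, Nop60B, Polr1A, Polr1B and Polr1C had none. Polr1D had a peak of 423 with its summit far upstream of its start (-996), at the edge of the 1000 bp window. The peak of bys is that of its neighbour RpS6. Of 7 genes for factors that act on ribosomal protein genes or their mutants, 5 were bound. These were Irbp18 (771), Dref (597, the peak shared with RpL13), M1BP (560), Xrp1 (273) and Trf2 (253), while Myc and S6k were not. The members of these lists were chosen with earlier results known, and 25.2% of all protein-coding genes were bound.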
